A study of Homo sapiens with 4 samples.

Results

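The transcripts of core binding factor were examined in SHMT2-knockdown and control colorectal cancer cells. The 5 genes were CBFB, RUNX1, RUNX2, RUNX3 and CBFA2T2, found by their symbols among the 26364 rows of the count table. Each of 2 human colorectal cancer cell lines, SW480 and SW620, gave 1 RNA library with SHMT2 knocked down and 1 control library, 4 in all. SHMT2 encodes the mitochondrial serine hydroxymethyltransferase, which converts serine to glycine and supplies one-carbon units. SW480 was derived from a primary tumor and SW620 from a metastasis, and no allele or agent other than the knockdown is given in the labels. In the knockdown system of the study, doxycycline switches on an shRNA from a lentiviral vector in puromycin-selected cells. The study's text calls the controls control shRNA cells and the labels call them control, and neither states whether they received doxycycline or which hairpin was sequenced.

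Core binding factor is a heterodimer of 1 RUNX protein, which binds DNA through its Runt domain, and CBFB, which does not bind DNA itself but raises the affinity of RUNX for DNA and protects it from degradation. RUNX1 is known for blood cell development, RUNX2 for bone formation, and RUNX3 for neurons, T cells and the gastrointestinal epithelium. CBFA2T2 (also called MTGR1) belongs to the ETO family of corepressors, which bring histone deacetylases to DNA-bound factors, and it is needed for the secretory cells of the mouse intestine.

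CBFB (ENSG00000067955.13) lies on the plus strand of chromosome 16 at 67029116 to 67101058, by GENCODE 29 on GRCh38. RUNX1 (ENSG00000159216.18) lies on the minus strand of chromosome 21 at 34787801 to 36004667, and RUNX2 (ENSG00000124813.21) on the plus strand of chromosome 6 at 45328157 to 45664349. RUNX3 (ENSG00000020633.18) lies on the minus strand of chromosome 1 at 24899511 to 24965121, and CBFA2T2 (ENSG00000078699.21) on the plus strand of chromosome 20 at 33490075 to 33650036. RUNX2 overlaps SUPT3H, a protein-coding gene of the opposite strand. Of the genes overlapping RUNX1 and RUNX3, the count table holds by symbol MIR802 and MIR6731, at 0 counts in all 4 libraries, and CBFB and CBFA2T2 overlap no other gene of that annotation. The count table also holds RUNX1-IT1, named for an intron of RUNX1, which has no entry under that symbol in GENCODE 29 and whose counts are given with the cell lines.

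The start regions of RUNX3 and RUNX2 are shown because each gene has 2 RefSeq start regions that differ in the letters RUNX proteins recognise. Each window runs 250 bases before to 50 bases after a start (RefSeq, GRCh38.p14), and capitals mark TGTGGT or TGCGGT on either strand, read as ACCACA or ACCGCA on the other. No marked match overlaps another.
RUNX3, distal start, chr1:24964961-24965260, minus strand: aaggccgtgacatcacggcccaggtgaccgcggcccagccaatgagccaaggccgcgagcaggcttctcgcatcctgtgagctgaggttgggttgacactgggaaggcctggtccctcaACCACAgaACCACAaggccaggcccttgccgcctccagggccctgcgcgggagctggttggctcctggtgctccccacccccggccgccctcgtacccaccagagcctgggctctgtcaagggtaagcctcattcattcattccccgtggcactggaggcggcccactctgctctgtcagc
RUNX3, second start, chr1:24930227-24930526, minus strand: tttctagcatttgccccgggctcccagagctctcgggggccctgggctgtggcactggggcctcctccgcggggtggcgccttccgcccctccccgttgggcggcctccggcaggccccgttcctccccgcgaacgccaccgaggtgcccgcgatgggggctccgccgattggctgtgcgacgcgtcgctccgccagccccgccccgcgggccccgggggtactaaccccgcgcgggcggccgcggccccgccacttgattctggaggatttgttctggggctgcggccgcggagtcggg
RUNX2, distal start, chr6:45328080-45328379, plus strand: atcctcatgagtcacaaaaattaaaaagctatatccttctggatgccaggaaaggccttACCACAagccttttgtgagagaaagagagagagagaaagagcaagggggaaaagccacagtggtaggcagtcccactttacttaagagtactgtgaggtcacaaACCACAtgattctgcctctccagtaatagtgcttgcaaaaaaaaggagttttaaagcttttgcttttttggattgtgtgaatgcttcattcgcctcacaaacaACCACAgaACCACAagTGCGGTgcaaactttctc
The distal RUNX3 window held 2 matches, beginning 131 and 123 bases before the start, and 15 CG dinucleotides. The second RUNX3 window held 0 matches and 38 CG dinucleotides. The distal RUNX2 window held 5 matches, at 191 and 87 bases before and 16, 24 and 32 bases after the start, with 2 CG dinucleotides, and the second RUNX2 window held 0 matches and 39 CG dinucleotides. RUNX1 and CBFA2T2 had 1 window each, at chr21:34888650-34888949 and chr20:33562092-33562391, with 0 matches and 40 and 2 CG dinucleotides. Both windows lie inside the genes as placed above, so a start at the outer end of either gene was not covered. CBFB had no window. Among 35116 windows of this length, 6879 (19.6%) held at least 1 match and 816 (2.32%) held 2 or more, and the median was 14 CG dinucleotides. Matches describe the letters of these windows, and counts per gene do not tell which start was used.

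The study also measured CBFB by qPCR and states that its transcript level matched the expression profiling. The study's list of lowered genes does not name CBFB. The CBFB primer pair is shown because it marks which CBFB transcripts that assay reads. Capitals mark the bases in exon 2 of transcript ENST00000290858.10.
CBFB forward primer: agaagcaagttcgagaacgag
CBFB reverse primer: CCTGAAGCCCGTGTACTTAATct
On this transcript of 3136 bases and 6 exons, the forward primer lies in exon 1 (bases 286 to 306). The reverse primer spans the junction of exons 1 and 2 (bases 338 to 360), with 21 bases in exon 2, and the amplicon is 75 bases long. Both primers matched 3 of 9 annotated CBFB transcripts and 0 transcripts of other genes. The sequencing counts are of the whole gene and do not separate these transcripts.

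The libraries held between 5530129 and 13774288 counts, and the SW620 knockdown library was the deepest. SHMT2 itself was at 277 CPM (counts relative to the TMM-scaled library size) in SW480 control and 30.9 CPM in SW480 knockdown cells, and at 688 and 47.6 CPM in SW620. The knockdown cells thus held 11.2% and 6.92% of the control level, in the direction of the labels. Among 10 epithelial markers, EPCAM, KRT8, KRT18, KRT19 and CDH1 had 557 counts or more in every library, CDX1 was at 0 in all 4, and KRT20 and LGALS4 had at most 15 counts. VIL1 had 2 and 1 counts in SW480 control and knockdown cells and 2029 and 5105 in SW620. The summed level of 6 blood cell markers was 0.367 to 1.06 CPM, with CD3E at 0 in all 4 libraries, and that of 2 endothelial markers 0 to 0.297 CPM.

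The first question was whether the level of any of the 5 transcripts differed between SHMT2-knockdown and control cells. CBFB was at 48.2% of the control in SW480, with an interval that reaches 55.3%, and at 42.8% in SW620. RUNX1, RUNX3 and CBFA2T2 did not pass the test, and RUNX2 was too low to be tested. In SW480, CBFB was at 88.2 CPM (847 counts) in control and 42.5 CPM (282 counts) in knockdown cells. In SW620, it was at 244.8 CPM (1335 counts) in control and 104.7 CPM (1408 counts) in knockdown cells, where the knockdown library was the deeper. Within each line the knockdown library was the lower, and the SW620 knockdown level lay close to the SW480 control level, at 1.19-fold of it (95% interval 1.09 to 1.29). Intervals within a line or between 2 single libraries are exact and cover counting error only.

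**Figure D1:**
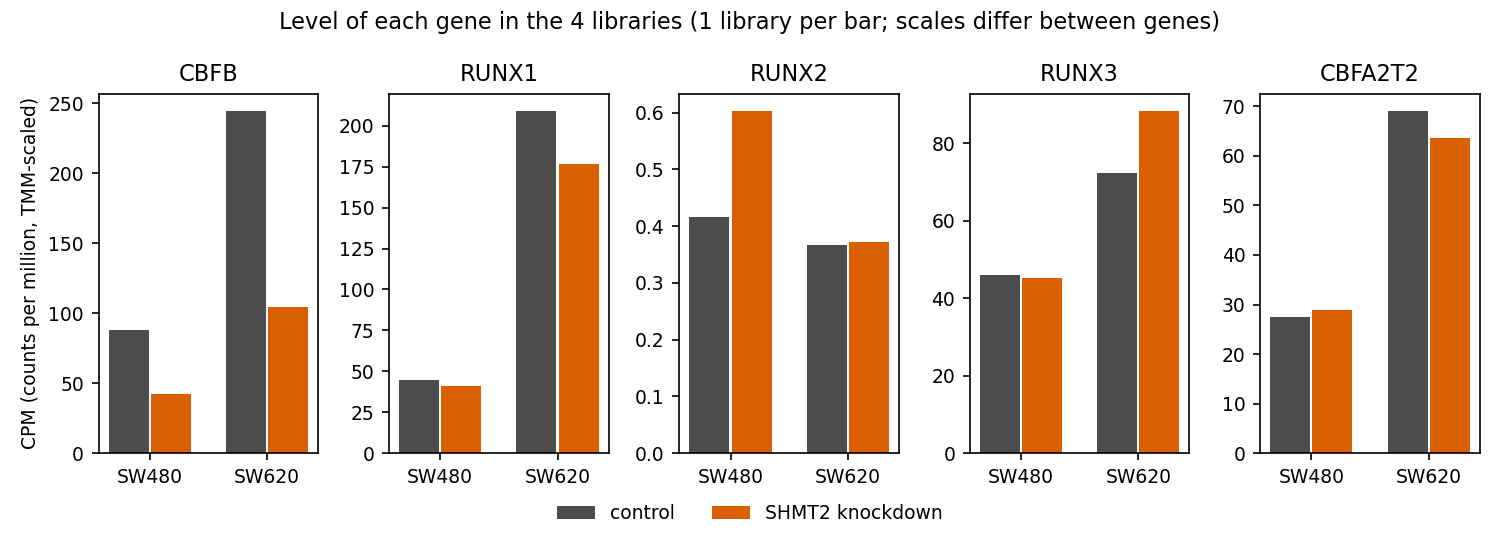
Level of each gene in the 4 libraries, in CPM on linear axes that start at 0 and differ between genes; each bar is 1 library, so there are no error bars. CBFB was lower in the knockdown library of both lines, RUNX1, RUNX3 and CBFA2T2 were higher in both SW620 libraries than in both SW480 libraries, and RUNX2 was at 0.603 CPM or less.

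The CBFB level in knockdown cells was 48.2% of control in SW480 (95% interval 42.0 to 55.3) and 42.8% in SW620 (39.6 to 46.1). Fitted over both lines, CBFB fell by 1.15 on the log2 scale (SE 0.125, 95% interval -1.39 to -0.90, n = 2 libraries a condition; edgeR quasi-likelihood test with a cell line term, adjusted p = 1.06e-16). It was the 6th smallest p and the 45th largest fall of 14024 genes tested, of which 1.17% were called lower and 0.492% higher. The log2 difference was -1.05 in SW480 and -1.22 in SW620, and the difference between the lines was -0.17 (95% interval -0.40 to 0.05). Without the cell line term the fall was -1.18 but was no longer called (unadjusted p = 0.201, adjusted p = 1.00), and the count of genes called lower went from 164 to 0. The cell line term left 1 residual degree of freedom per gene, so the test relied mostly on a spread shared across genes. AXL, at -0.63 in SW480 and 0.77 in SW620, had an SE of 0.141, close to the 0.140 of CBFA2T2. With a minimum of 50 counts in 2 libraries CBFB was at -1.15, with an adjusted p of 0.000202 in edgeR. With 1 library per line and condition, the p-values do not measure the spread between repeated cultures. In bulk RNA, fewer cells with a transcript and less transcript per cell cannot be told apart.

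**Figure D2:**
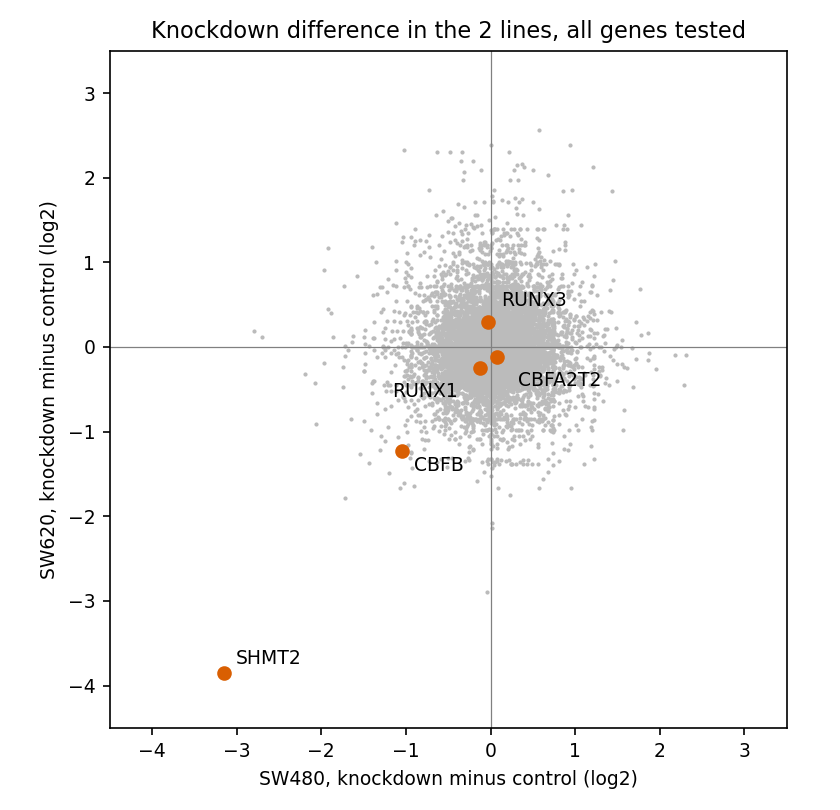
Log2 difference between knockdown and control in SW480 (x axis) and in SW620 (y axis) for all 14024 genes tested (grey points); orange points are the 4 tested genes and SHMT2. CBFB lies at -1.05 and -1.22, away from the bulk of the genes, and RUNX1, RUNX3 and CBFA2T2 lie inside it.

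RUNX1 was at 44.6 CPM in SW480 control and 40.9 CPM in SW480 knockdown cells, and at 209.2 and 176.3 CPM in SW620. Its knockdown level was 91.7% of control in SW480 (95% interval 78.5 to 107) and 84.3% in SW620 (78.5 to 90.5). The fitted difference was -0.19 (SE 0.125, 95% interval -0.44 to 0.05) and did not pass the test in edgeR (adjusted p = 0.751). Both knockdown libraries lay below their controls, by less than CBFB, and an interval that reaches -0.44 does not show that RUNX1 was equal.

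RUNX3 was at 45.9 and 45.1 CPM in the SW480 control and knockdown libraries and at 72.2 and 88.4 CPM in those of SW620. The knockdown level was 98.2% of control in SW480 (95% interval 84.5 to 114) and 122% in SW620 (109 to 137). The fitted difference over both lines was 0.14 (SE 0.134, 95% interval -0.12 to 0.40; edgeR, adjusted p = 0.911). RUNX3 was the 1 gene of the 5 whose counting interval for the difference between the lines, 0.32 (0.05 to 0.59), left out 0, and no replicate library within a line was there to test it.

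RUNX2, the bone factor, had 4 counts in each SW480 library, 2 in SW620 control and 5 in SW620 knockdown cells, or 0.367 to 0.603 CPM. Its knockdown level of 145% of control in SW480 had an interval of 27.0% to 778%, and that of 101% in SW620 one of 16.6% to 1064%, so that no difference was detectable at this depth. SUPT3H, on the opposite strand, had 47 to 148 counts, and whether the counting used strand is not given in the sources used here.

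CBFA2T2 was at 27.5 CPM in SW480 control and 28.96 CPM in SW480 knockdown cells, and at 69.1 and 63.6 CPM in SW620. This was 105% of control in SW480 (95% interval 87.0 to 127) and 92.0% in SW620 (81.4 to 104). The fitted difference was -0.04 (SE 0.140, 95% interval -0.31 to 0.24; edgeR, adjusted p = 0.989), and the sign turned when all libraries were thinned to an equal total (0.03).

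**Figure D3:**
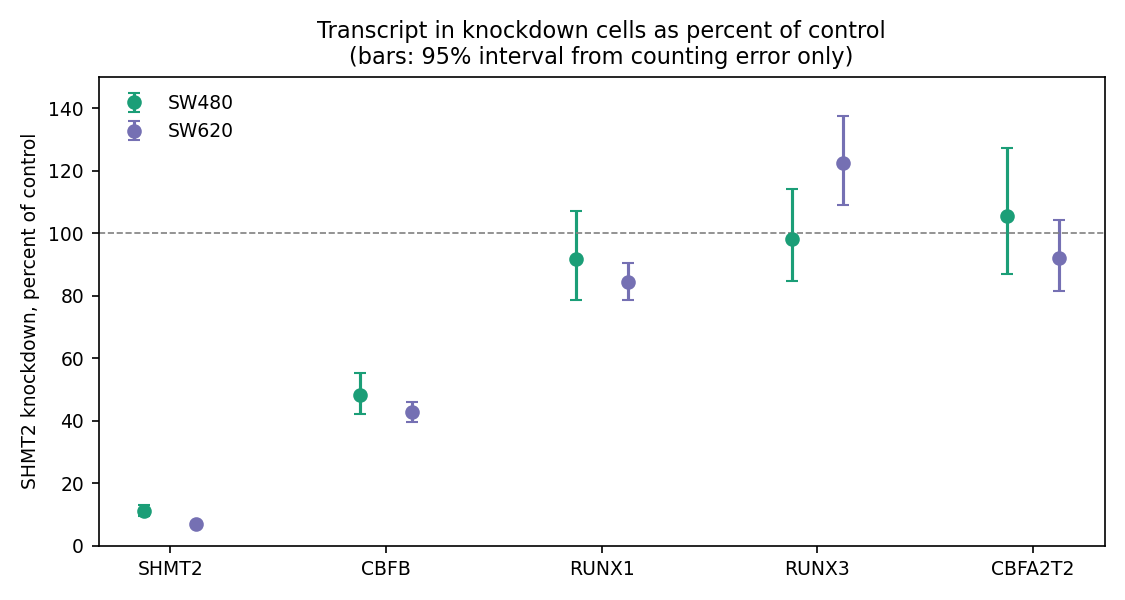
Transcript level in SHMT2-knockdown cells as percent of control in SW480 and SW620, for SHMT2, CBFB, RUNX1, RUNX3 and CBFA2T2; bars are exact 95% intervals of the ratio and cover counting error only, and the dashed line marks 100%. CBFB sits at 48.2% and 42.8%, and the intervals of RUNX1 and RUNX3 leave out 100% in SW620 but not in SW480.

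The relation of CBFB to its partners was then described per kilobase of merged exons (4129 bases for CBFB, 15574 for RUNX1, 8192 for RUNX2 and 4523 for RUNX3). In the control libraries CBFB was at 21.4 CPM per kb in SW480 and 59.3 CPM per kb in SW620, against 13.1 and 29.4 CPM per kb for the 3 RUNX genes summed. In the knockdown libraries CBFB was at 10.3 and 25.3 CPM per kb, against 12.7 and 30.9 CPM per kb for the RUNX sum. The ratio of CBFB to the RUNX sum was therefore 1.63 and 2.01 in the control libraries and 0.813 and 0.820 in the knockdown libraries of SW480 and SW620. CBFB exceeded the RUNX sum in both controls and lay under it in both knockdown libraries. With the length of the longest coding transcript in place of the merged exons, the ratios were 1.68 and 1.72 in the controls and 0.842 and 0.747 in the knockdown libraries. The lengths are those of GENCODE 29 on GRCh38, while the submitters name hg18 and the annotation used for counting is not given. These ratios have no interval, and whether they lie above or under 1 rests on the lengths. They are of transcript levels, and protein was not measured in these files.

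By merged exons, RUNX3 took most of the RUNX level per kb in every library. Its share was 77.7% and 78.7% in SW480 control and knockdown cells and 54.2% and 63.2% in those of SW620. RUNX1 took 21.9%, 20.7%, 45.6% and 36.6% in the same order, and RUNX2 took 0.581% or less. The order of RUNX1 and RUNX3 depended on the length used. By the longest coding transcript (7274 bases for RUNX1), the ratio of RUNX1 to RUNX3 was 1.73 in SW620 control and 1.19 in SW620 knockdown cells, against 0.841 and 0.579 by merged exons. In SW480 it was 0.579 and 0.541 by that transcript and 0.282 and 0.263 by merged exons, with RUNX3 above RUNX1 by both lengths.

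The second question was how the 2 cell lines differed. CBFB, RUNX1, RUNX3 and CBFA2T2 were all higher in SW620 than in SW480, in the control pair as in the knockdown pair. In the fit over 4 libraries 4 of 4 tested genes were called higher in SW620, where 32.3% of all genes tested were called higher and 31.3% lower. With so large a share of all genes called, a call alone says little about these 4. With 1 library per line and condition, differences between the lines cannot be told apart from differences between these cultures.

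RUNX1 had the widest line difference of the 4, at 4.69-fold in the control cells (95% interval 4.20 to 5.26) and 4.31-fold in the knockdown cells (3.80 to 4.91), with a fitted log2 difference of 2.17 (SE 0.129; edgeR, adjusted p = 1.43e-61). RUNX1-IT1 had 0 counts in both SW480 libraries and 9 and 20 counts in SW620 control and knockdown cells. With a floor of 3 counts set for SW480, its SW620 level was 5.28-fold that floor among controls and 3.29-fold among knockdown cells. Counting error is not included in these ratios.

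CBFB was 2.78-fold higher in SW620 control cells (95% interval 2.54 to 3.03) and 2.46-fold higher in SW620 knockdown cells (2.16 to 2.81), with a fitted log2 difference of 1.39 (SE 0.125; edgeR, adjusted p = 1.79e-27). The 4 CBFB levels thus ran from SW480 knockdown through SW480 control and SW620 knockdown to SW620 control, and the middle pair lay nearest to each other. CBFA2T2 was 2.51-fold (2.14 to 2.95) and 2.19-fold (1.87 to 2.58) higher, with a log2 difference of 1.23 (SE 0.141; edgeR, adjusted p = 2.34e-17). RUNX3 was 1.57-fold (1.37 to 1.81) and 1.96-fold (1.73 to 2.23) higher, with a log2 difference of 0.81 (SE 0.134; edgeR, adjusted p = 5.09e-09).

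The other members of the ETO family differed between the lines the opposite way or were near 0. CBFA2T3 had 193 and 144 counts in SW480 control and knockdown cells and 0 counts in both SW620 libraries. With a floor of 3 counts set for SW620, its SW480 level was 36.5-fold that floor among controls and 97.4-fold among knockdown cells, counting error not included. RUNX1T1, the ETO gene itself, had 0 counts in both SW480 libraries and 3 and 13 in SW620. Of the 3 ETO genes, CBFA2T2 was the 1 with counts in all 4 libraries.

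The 10 nearest tested genes on the chromosome, 5 on each side in RefSeq gene order, were compared with each gene. Of the 10 neighbours of CBFB, 0 were called in the knockdown comparison (edgeR), where 1.66% of all genes tested were called in either direction, with log2 differences from -0.29 to 0.53 and a median of 0.13. The adjacent genes were CES3, a carboxylesterase, at 0.20 (adjusted p = 0.974 in edgeR), and C16orf70 at 0.18 (adjusted p = 0.823). A count of 0 of 10 is close to the share of all genes and says nothing particular about this region. In the line comparison 7 of the 10 were called, near the 63.6% of all genes tested, and they went both ways. RRAD and the adjacent CES3 differed by -3.38 and -2.34 on the log2 scale. PDP2, FAM96B, CES2, C16orf70 and B3GNT9 were higher by 0.97 to 1.26, beside 1.39 for CBFB, and these genes, apart from the adjacent 2, were named after their values were seen.

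RUNX1 and RUNX3 had 0 of 10 neighbours called in the knockdown comparison, within -0.36 to 0.23 and -0.36 to 0.11. CBFA2T2 had 1 of 10, E2F1, a transcription factor of S phase genes, which fell by 0.48 (adjusted p = 0.0475 in edgeR). In the line comparison, 8 of 10 neighbours of RUNX1 were called, beside the 63.6% of all genes, with log2 differences from -7.05 to 11.19, and the 2 genes next to it, RCAN1 and SETD4, differed by 0.89 and 0.26. For RUNX3 the count was 6 of 10, with CLIC4 at -0.80 and SYF2 at -0.24 on its sides. For CBFA2T2 it was 8 of 10, with NECAB3 at -0.68 next to it.

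**Figure D4:**
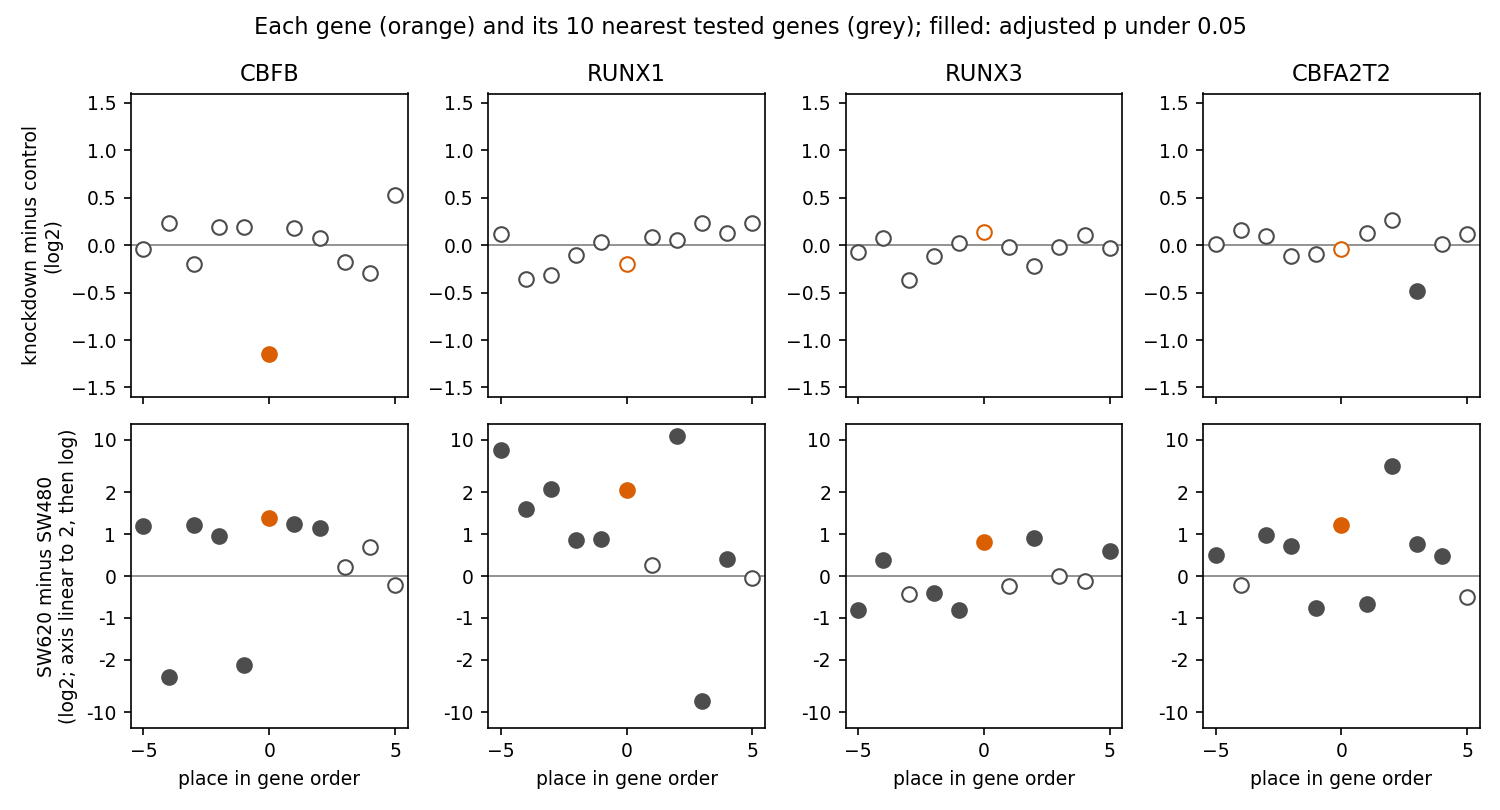
Log2 differences of each gene (orange) and its 10 nearest tested genes (grey) by place in the gene order; the upper panels show knockdown minus control and the lower panels SW620 minus SW480, whose axis is linear to 2 and logarithmic beyond. Filled points have an adjusted p under 0.05, and CBFB is the only filled point of its upper panel, at -1.15.

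The proteins that work with core binding factor were taken from lists by role. In the knockdown comparison the median log2 difference of all genes tested was 0.01, and 1.17% were called lower. Of the corepressors that RUNX or ETO proteins recruit, 14 of 16 were tested and 0 were called (median 0.00, range -0.37 to 0.36). All 9 coactivators were tested and 0 were called (median 0.04). Of 10 SMAD and TGF-beta receptor genes, which act with RUNX proteins, 0 were called (median 0.12), and of 6 tested DNA-binding partners of the ETO family 0 were called (median 0.01). Of 32 known RUNX target genes 19 were tested and 0 were called (median -0.07, range -0.85 to 0.48), where 1.66% of all genes tested were called in either direction. Counts of 0 in lists of these sizes are close to that share and do not show that the genes were unchanged. The 13 targets that were not tested, blood and bone genes such as IL3, MPO and IBSP among them, did not reach 10 counts in 2 libraries.

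The list of 17 kinases, cyclins and ubiquitin ligases that modify RUNX proteins was the 1 list by role with calls. It had 4 lower and 0 higher calls and a median of -0.14, where 1.17% of all genes tested were called lower. The lists were chosen with earlier results of these data known. The study lists CDC20, CDK1 and CDK2 as lowered in this experiment and checked CCND1 by qPCR. That this list held calls is therefore not an independent result. CCND1, the G1 cyclin, was at 948 and 349 CPM in SW480 control and knockdown cells and at 217 and 83.9 CPM in SW620, and fell by 1.41 on the log2 scale (SE 0.106; edgeR, adjusted p = 2.90e-36). CDC20, an activator of the anaphase-promoting complex, went from 356 to 224 CPM and from 236 to 185 CPM (fell by 0.51, adjusted p = 0.000813 in edgeR). CDK2, the S phase kinase, went from 91.8 to 65.6 CPM and from 93.1 to 60.3 CPM (fell by 0.56, adjusted p = 0.0027 in edgeR). The fourth was CDK1, the mitotic kinase, named because the count was small (fell by 0.43, adjusted p = 0.0409 in edgeR). The knockdown library was lower than the control in both lines for each of these. All 4 have general roles in the cell cycle, and of the 4 only CCND1 was called with a minimum of 50 counts in 2 libraries or by DESeq2.

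**Figure D5:**
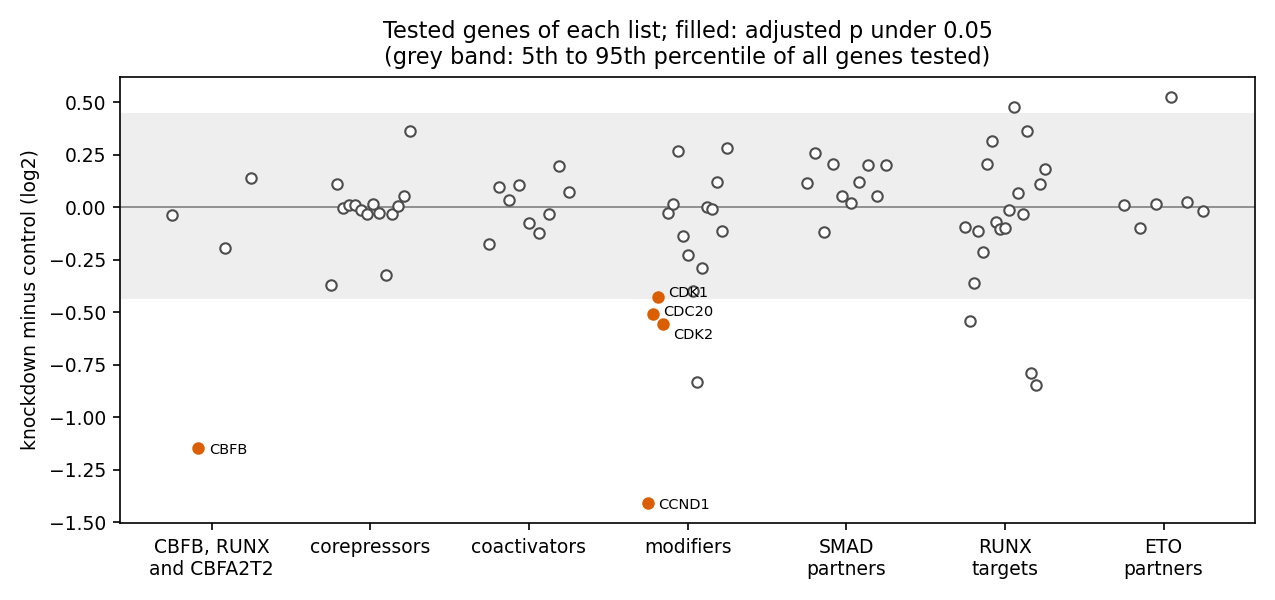
Log2 difference between knockdown and control for the tested genes of each list, with the 4 tested core genes at the left; filled orange points have an adjusted p under 0.05 and the grey band holds the 5th to 95th percentile of all 14024 genes tested. CBFB and 4 cell cycle genes of the modifier list are the filled points. The RUNX targets have 0, close to the 1.66% of all genes tested that were called in either direction.

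Between the lines, most tested genes of these lists were called, as were 63.6% of all genes tested. Of the 14 corepressors tested, 5 were lower and 5 higher in SW620. TLE1, a Groucho corepressor that RUNX proteins bind, had 468 and 312 counts in SW480 control and knockdown cells and 0 and 2 in SW620, and TLE2 had 343 and 249 against 3 and 2. NCOR1, a scaffold for histone deacetylases, was higher in SW620 by 2.28 (SE 0.123; edgeR, adjusted p = 3.71e-74). TLE3, another Groucho gene, named after its values were seen, went the other way, at 63.5 and 64.0 CPM in SW480 and 202 and 216 CPM in SW620, a log2 difference of 1.71 (SE 0.123; edgeR, adjusted p = 2.44e-42).

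Of the 9 coactivators tested, 2 were lower and 4 higher in SW620, beside 31.3% and 32.3% of all genes tested. WWTR1 (TAZ), which binds RUNX proteins, was at 90.0 and 82.5 CPM in SW480 control and knockdown cells and 9.17 and 16.9 CPM in SW620, a log2 difference of -2.67. SMARCA4, a chromatin remodelling ATPase, was higher by 1.06, and the acetyltransferase gene EP300 by 0.43. Of the 17 modifiers tested, 8 were lower and 4 higher, with the ubiquitin ligase gene SMURF2 at -2.93, CCND1 at -2.09 and CDK6 at 1.93.

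Of the 10 SMAD and TGF-beta receptor genes tested, 5 were lower and 3 higher in SW620, beside 31.3% and 32.3% of all genes tested. SMAD4, the common partner of the receptor SMADs, was at 64.2 and 68.8 CPM in SW480 control and knockdown cells and at 2.20 and 1.41 CPM in SW620 (12 and 19 counts), a log2 difference of -5.32 (SE 0.222; edgeR, adjusted p = 9.78e-123). SMAD3 was lower in SW620 by 1.73 and TGFBR2, a TGF-beta receptor, higher by 1.76. SMAD3 and SMAD4 were thus lower in the line where RUNX1 and RUNX3 were higher. The list as a whole went both ways, so no opposite movement of SMAD and RUNX genes is read from this pairing.

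Of the 19 RUNX targets tested, 8 were lower and 9 higher in SW620, beside 31.3% and 32.3% of all genes tested. The list was not tested against those shares. CDKN1A (p21), an inhibitor of cyclin-dependent kinases, was at 378 and 287 CPM in SW480 control and knockdown cells and at 2.57 and 6.32 CPM in SW620. CLDN1, a tight junction claudin, had 2 and 1 counts in SW480 and 365 and 1128 in SW620, and the receptor kinase gene AXL was lower in SW620 by 2.33. Of the 6 ETO partners tested, 3 were lower and 3 higher, with LDB1 at -0.68, TCF12 at 0.61 and BCL6 at -1.04.

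Epithelial markers moved with the knockdown in part. KRT8 fell by 0.34 and KRT18 by 0.34, while CDH1 rose by 0.45 (adjusted p = 0.00406, 0.00537 and 0.0210 in edgeR), and the other 4 tested markers of 10 were not called. The summed level of the list was 7013 and 5400 CPM in SW480 control and knockdown cells and 10495 and 9519 CPM in SW620, lower in the knockdown library of both lines by less than CBFB was. The part of these differences in the CBFB result was not tested. The summed level of 5 fibroblast and bone markers was 20.4 to 21.3 CPM in SW480 and 6.76 to 6.97 CPM in SW620. Most of it was COL1A1, at 21.1 and 19.6 CPM in SW480 control and knockdown cells and 6.42 and 6.39 CPM in SW620. COL1A2, DCN, BGLAP and SP7 had 4 counts or fewer in every library.

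The genes whose pattern over the 4 libraries was most like that of each gene were found by the root mean square distance between centred log2 CPM profiles. For CBFB these were ICK at 0.142, TSEN15 at 0.161, NAALADL1 at 0.196, PTRHD1 at 0.197 and RASD1 at 0.200. ICK, a ciliary protein kinase, was at 30.5 and 18.4 CPM in SW480 control and knockdown cells and at 89.7 and 35.2 CPM in SW620, and TSEN15, a subunit of the tRNA splicing endonuclease, at 23.7, 11.6, 67.7 and 22.1 CPM in the same order. NAALADL1 and RASD1 were at 2.02 CPM or less. For RUNX1 the nearest genes were SLC38A3, FUNDC2 and ADRBK1 (distances 0.0277 to 0.0580), for RUNX3 RNF121, DHX36 and HTR7P1 (0.0294 to 0.0303), and for CBFA2T2 PDP2, GLA and SKP2 (0.0154 to 0.0247). With 4 libraries, 2 of them of each line, many genes can share a profile, and by Pearson correlation 0 of the 5 nearest genes of CBFB were shared.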

How the data were processed

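Raw counts by gene symbol, with no normalization, were deposited in 1 table for 4 RNA libraries, made per the labels with an Illumina TruSeq kit. The submitters' processing notes name Bowtie 0.12.2 and hg18, and how reads were counted, with which annotation and whether by strand, is not given in the sources used here. The study's results and data statement speak of RNA-seq and its methods of an Agilent microarray, and the table holds whole numbers with unequal library totals. In 28 rows, holding 0.217% of the counts, dates stand for symbols.

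A gene was tested if 2 or more libraries had 10 or more counts, which kept 14024 genes and 4 of the 5, without RUNX2. Counts were TMM-scaled and fitted in edgeR 4.0.16 (R 4.3.3) by the two-sided quasi-likelihood test with terms for cell line and treatment, and p-values were adjusted by Benjamini-Hochberg over all genes tested. Knockdown and control libraries were paired by cell line, as the labels give it. SE was the log2 difference over the root of F. A prior count of 2 was added for log2 values of single lines, and ratios of 2 libraries had exact conditional 95% intervals. Nothing in the sources says that libraries came from separate cultures.

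Alternatives were no cell line (or no treatment) term, other count filters, DESeq2 1.42.0 and its size factors, thinning, single lines, and gene length. The code was tested on simulated data. The genes and lists were chosen with earlier results of these data known. Named list genes are up to 3 of the smallest p among those called, per list and comparison. Promoters came from RefSeq (4 of 5 genes matched) and 98.0% of the genes tested were placed in its gene order. The value of 1 gene next to CBFA2T2 is not reported here.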

Additional observations from a re-analysis of the deposited data

Results flagged for a closer look

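Of 58 named genes looked at, 26 had a knockdown library above the control in 1 line and below it in the other. With 1 library per line and condition this difference was not tested. The share of all genes tested with opposite signs was not counted, so 26 of 58 says nothing particular about these genes. The log2 difference between knockdown and control was -0.026 in SW480 and 0.290 in SW620 for RUNX3, and 0.075 and -0.121 for CBFA2T2. Of the neighbours, it was 0.71 and -0.99 for CES3, -0.044 and 0.097 for RCAN1, 0.192 and -0.016 for SETD4, -0.26 and 0.33 for CLIC4, and -0.26 and 0.32 for B3GNT9. Of the genes with like patterns, it was -0.082 and 0.350 for HTR7P1, 0.047 and -0.107 for PDP2, 0.069 and -0.088 for GLA, and 0.070 and -0.060 for SKP2.

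Of the list genes, it was -0.050 and 0.73 for TLE1, 0.072 and -1.05 for TLE2, 0.18 and -0.17 for NCOR1, -0.12 and 0.86 for WWTR1, -0.10 and 0.42 for SMURF2, and 0.036 and -0.083 for CDK6. It was 0.098 and -0.57 for SMAD4, -0.19 and 0.37 for SMAD3, and -0.0024 and 0.37 for TGFBR2. It was -0.39 and 1.23 for CDKN1A, -0.20 and 0.32 for CLDN1, -0.63 and 0.77 for AXL, 0.22 and -0.16 for TCF12, and 0.14 and -0.16 for BCL6. For the epithelial marker VIL1 it was -0.20 and 0.029. TLE1 and TLE2 had 3 counts or fewer in each SW620 library, and CLDN1 and VIL1 had 2 or fewer in each SW480 library. None of the 26 was called in the knockdown fit over both lines. They were picked for opposite signs, which tend to cancel in that fit, so the lack of calls says little about them. Other neighbours, given in the text only as counts and ranges, were not looked at for this.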

How the results depend on the processing

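The knockdown fit has 1 residual degree of freedom per gene, and low totals limit RUNX2 and the low targets. The cell line pairs the libraries. Without this replicate block, 0 genes were called lower and 0 higher (18 at an unadjusted p under 0.05), 0 of the tested core genes were called, and CBFB was at -1.18 (unadjusted p = 0.201). With both terms, the 164 lower and 69 higher calls became 54 and 15 with a minimum of 50 counts, 81 and 27 with libraries thinned to the smallest total, and 21 and 5 by the DESeq2 Wald test, which gave no adjusted p for 9516 genes (241 at an unadjusted p under 0.05). The cause of these lower counts was not tested. CBFB stayed called in all 5 of these alternatives with both terms, with adjusted p from 7.07e-16 to 0.000202. CBFA2T2, not called, turned to 0.027 with thinning. The line comparison gave 2826 lower and 2680 higher genes by DESeq2, against 4394 and 4532. CBFB, RUNX1, RUNX3 and CBFA2T2 stayed higher in SW620 in all 6 alternatives with a test, that without the treatment term among them, with adjusted p of 0.00854 or less.

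In single lines, with no test, the knockdown log2 difference ranged from -1.22 to -1.05 for CBFB, -0.25 to -0.12 for RUNX1, -0.03 to 0.29 for RUNX3 and -0.12 to 0.07 for CBFA2T2. Counts of called genes have no value there. The modifier list had 4 lower calls, against 1 with a minimum of 50 counts, 1 by DESeq2, 2 with thinning and 0 without the cell line. CDC20 and CDK2 lost their calls with the minimum of 50 counts (adjusted p = 0.0512 and 0.0566) and by DESeq2 (0.162 and 0.335). The gene length and list counts under the alternatives were chosen after seeing the data.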
